A study of Mus musculus with 7 samples.

Results

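The 10 genes described here encode chains of cytokine receptors on T cells: Il7r, Il2rg, Il4ra, Il6ra, Il12rb1, Il12rb2, Il18r1, Il10ra, Ifngr1 and Il27ra. They were chosen by name, with earlier results of these data known, and found by symbol among the 16734 genes of the table. All 10 reached the mean of 1 RPKM over the 7 libraries that was needed for a test. Polyadenylated RNA from cell suspensions of whole thymus of mice aged 4 weeks was sequenced in 3 groups, which were wild type C57BL/6 (3 libraries, replicates 1, 2A and 2B), Ikaros ZnF1-/- (2 libraries, replicates 1 and 2) and Ikaros ZnF4-/- (2 libraries, replicates 1 and 2). The mutants lack the first or the fourth zinc finger of the DNA-binding domain of Ikaros, a transcription factor of lymphoid cells encoded by Ikzf1, and the comparison asks what each finger contributes. The strain background of the mutants, the animals behind each library and the cells that carry the mutation are not given in the labels used here, so a p-value measures the spread between these libraries, which may be technical in part. Whole thymus holds cells of many types, and in such bulk RNA fewer cells of a type and less RNA per cell cannot be told apart.

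Cytokine receptors are built from chains that bind the ligand and chains that carry the signal. IL-7, IL-4, IL-6, IL-12, IL-27, IL-10 and interferon-gamma act through receptors that hold JAK kinases at the membrane and activate STAT transcription factors, whereas the IL-18 receptor belongs to the IL-1 receptor family and signals through MyD88. In the thymus IL-7 sustains early progenitors and mature thymocytes, and its receptor is low in double-positive thymocytes, which carry both CD4 and CD8.

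Levels are given in RPKM, reads scaled to the length of a gene's exons and to the mapped reads of its library, as deposited. Replicate 1 of each group was read as 76 bp and the other replicates as 50 bp on another instrument, so the replicate number marks a sequencing batch. Sex went with the batch, since Xist reached 90.6 to 109 RPKM at 76 bp but 0.01 to 0.03 RPKM at 50 bp. Differences were therefore tested with limma without and with the replicate number as a block, the latter called the blocked fit, and a gene was called at an adjusted p under 0.05 over the 10498 genes tested. Errors are SD for levels, over 3 wild type or 2 mutant libraries, and SE for log2 fold changes, which are on the scale of log2(RPKM + 0.5). At 76 bp the values of genes with few reads best matched depths of 20140000 mapped reads for wild type, 14290000 for ZnF1-/- and 6310000 for ZnF4-/-, with 42.7% to 60.2% of low values within 0.006 RPKM of a whole read where 13.0% to 16.5% would be by chance, so these depths are estimates. No depth could be read from the 50 bp libraries. Ikzf1 itself was at 141.71, 175.43 and 169.51 RPKM in wild type, 183.02 and 194.30 RPKM in ZnF1-/- and 238.09 and 257.02 RPKM in ZnF4-/-, where it rose in the blocked fit (0.64 ± 0.10, adjusted p = 0.00737; 0.198 without the block). A value summed over all exons does not check the loss of a single finger. T cell identity markers were high throughout, with a summed level of 1938 to 2749 RPKM in wild type, 2151 to 2598 RPKM in ZnF1-/- and 2021 to 2331 RPKM in ZnF4-/-.

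In ZnF4-/- thymus the receptor genes moved in both directions. Il18r1 rose from 1.12 ± 0.25 RPKM (SD, n = 3) in wild type to 4.92 ± 1.48 RPKM (n = 2), and Il12rb1 fell from 10.1 ± 2.52 to 3.53 ± 0.778 RPKM. These 2 of the 10 receptors passed without the block, where 2.54% of all tested genes did. In the blocked fit 7 of 10 passed, where 8.22% of all tested genes did. The 4 that rose were Il18r1, Il6ra, Il7r and Il27ra, beside 6.1% of genes with a rise, and the 3 that fell were Il12rb1, Il4ra and Ifngr1, beside 2.12% with a fall. In ZnF1-/- thymus 0 receptors passed with limma by either fit, where 0.0857% of all tested genes passed without and 0.876% with the block, and 2 receptors had an unadjusted p under 0.05, beside 3.85% of genes. ZnF4-/- differed from ZnF1-/- in 2 receptors without the block, Il18r1 and Il12rb1, where 2.34% of genes were called. In the blocked fit 5 receptors differed, the same genes plus Il6ra, Ifngr1 and Il4ra, where 7.29% of genes were called. The comparisons share libraries, so the counts are not independent of each other. Because the receptors were chosen with earlier results of these data known, the shares of all genes here and below are a description. They do not test whether receptors changed more often than other genes.

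**Figure D1:**
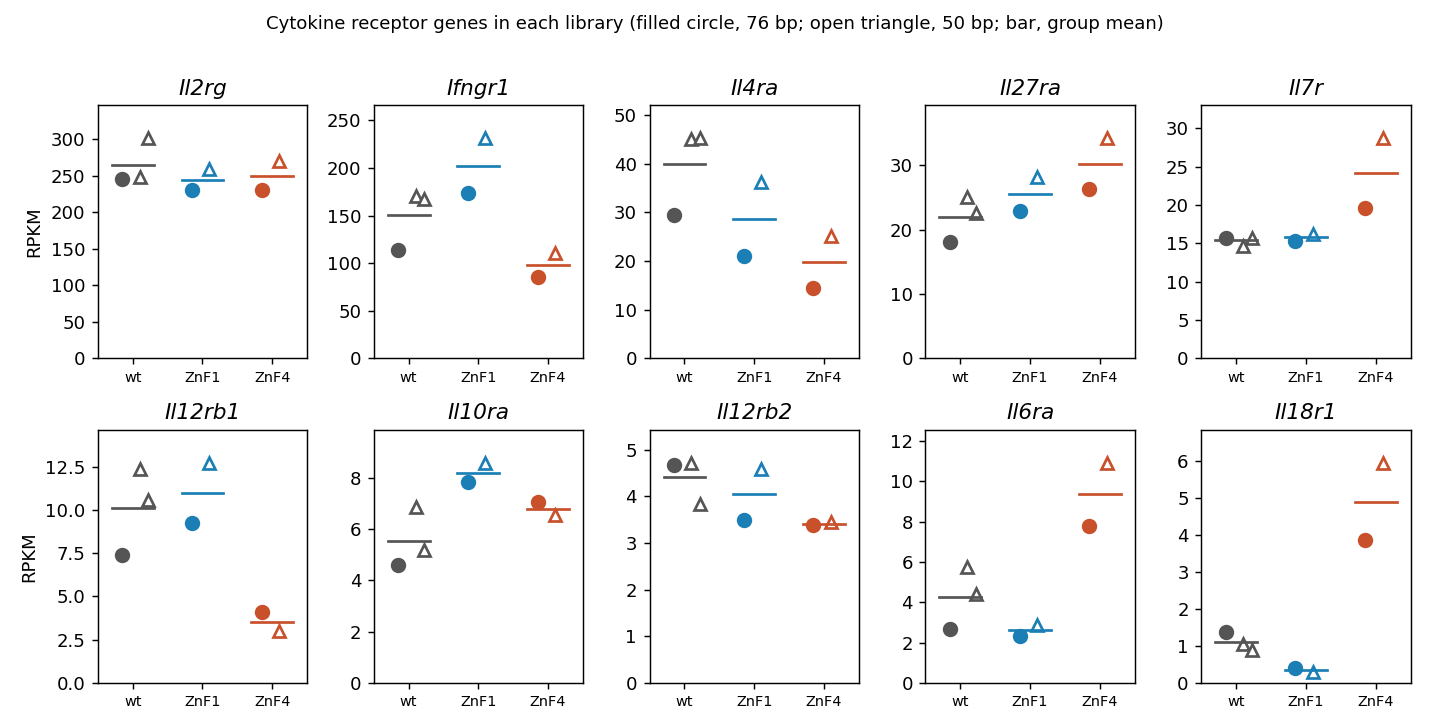
RPKM of each receptor gene (vertical axis, linear from 0, own scale for each gene) in the 3 groups. Filled circles are the 76 bp libraries, open triangles the 50 bp libraries and bars the group means. Il18r1 and Il6ra are highest in both ZnF4-/- libraries, at 3.87 and 5.96 RPKM and at 7.78 and 10.91 RPKM, while Il12rb1 is lowest there, at 4.08 and 2.98 RPKM.

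The medians of the 10 log2 fold changes were -0.04 in ZnF1-/- and 0.10 in ZnF4-/- against wild type, beside -0.02 and -0.05 over all tested genes, with 5 receptors higher and 5 lower in each mutant. Both libraries of ZnF4-/- lay outside the range of the 3 wild type libraries for 8 of 10 receptors, 4 higher and 4 lower, where 23.1% of tested genes did, 12.5% higher and 10.6% lower. Against wild type all 10 receptors differed in the same direction within both batches in ZnF4-/-, where 54.3% of tested genes did, and 8 of 10 did in ZnF1-/-, where 57.8% did. In ZnF1-/- the libraries lay outside the wild type range for 3 receptors, where 13.8% of genes did. Between the mutants 7 receptors did not overlap, where 32% of genes did not.

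Wild type levels, which RPKM sets on a scale per length, spanned a wide range. Il2rg was highest at 265 ± 31.5 RPKM, followed by Ifngr1 at 151 ± 32.2, Il4ra at 39.8 ± 9.04, Il27ra at 21.9 ± 3.55, Il7r at 15.4 ± 0.577 and Il12rb1 at 10.1 ± 2.52 RPKM. Il10ra at 5.55 ± 1.18, Il12rb2 at 4.41 ± 0.503 and Il6ra at 4.28 ± 1.53 RPKM overlapped between libraries, so their order is not resolved. Il18r1 was lowest at 1.12 RPKM. In ZnF4-/- Il4ra, at 19.8 RPKM, stood below Il27ra at 30.3 and Il7r at 24.2 RPKM, and Il12rb1 stood below Il6ra at 9.35 RPKM. Il12rb1 and Il18r1 overlapped there, with Il12rb1 the higher in replicate 1 and the lower in replicate 2.

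Promoter sequence is shown for the pair of receptors with the largest rises and for a pair that fell in ZnF4-/- in the blocked fit. Ikaros is known to bind DNA that holds the core GGGAA. The 250 bases before the start of each gene are given 5′ to 3′ on the gene's strand from RefSeq on GRCm38.p6, with GGGAA and its reverse complement TTCCC in capitals. The windows are chr1:40465302-40465551 (plus strand) for the most upstream listed start of Il18r1, chr3:89913197-89913446 (minus strand) for Il6ra, chr7:125552021-125552270 (plus strand) for Il4ra and chr10:19591699-19591948 (plus strand) for Ifngr1.
Il18r1: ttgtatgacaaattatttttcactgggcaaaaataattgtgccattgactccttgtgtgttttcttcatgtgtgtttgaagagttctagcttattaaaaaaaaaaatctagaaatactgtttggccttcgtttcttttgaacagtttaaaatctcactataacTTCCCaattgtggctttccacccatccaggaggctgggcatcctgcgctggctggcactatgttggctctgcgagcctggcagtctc
Il6ra: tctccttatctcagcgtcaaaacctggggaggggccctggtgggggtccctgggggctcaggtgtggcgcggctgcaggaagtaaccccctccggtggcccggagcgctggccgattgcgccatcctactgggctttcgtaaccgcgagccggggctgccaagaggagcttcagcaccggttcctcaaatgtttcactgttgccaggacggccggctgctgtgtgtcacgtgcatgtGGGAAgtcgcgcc
Il4ra: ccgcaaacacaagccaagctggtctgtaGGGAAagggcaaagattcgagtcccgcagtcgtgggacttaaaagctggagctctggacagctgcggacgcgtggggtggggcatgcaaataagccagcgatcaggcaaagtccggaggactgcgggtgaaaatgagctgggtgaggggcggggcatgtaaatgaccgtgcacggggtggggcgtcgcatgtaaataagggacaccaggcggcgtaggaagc
Ifngr1: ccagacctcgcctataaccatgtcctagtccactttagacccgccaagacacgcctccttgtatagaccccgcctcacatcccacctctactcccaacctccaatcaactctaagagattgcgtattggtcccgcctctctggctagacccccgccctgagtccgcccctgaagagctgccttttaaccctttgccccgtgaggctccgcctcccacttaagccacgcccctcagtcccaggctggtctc
The core occurred 1 time in the windows of Il18r1, Il6ra and Il4ra and 0 times in that of Ifngr1. Of all 32851 promoter windows of this length, 56.2% hold it on either strand, so its presence here is common. With a T before it, as TGGGAA on either strand, it occurred 1 time in Il18r1 and in Il6ra and 0 times in the other pair, but also 1 time in Il2rg, which passed in no comparison, and 0 times in Il7r, which rose in ZnF4-/- in the blocked fit, and in Il12rb2. Of all windows, 21.6% hold that longer form, whose matches are also matches of the core. The other listed starts of Il18r1 hold 1 and 2 matches of the core. The window with 1 match overlaps the window shown, and its match is the same TTCCC. Il7r holds 2 matches and Il2rg and Il12rb2 hold 1 each. Promoter windows were matched for 7 of 10 receptors, the others being Il12rb1, Il10ra and Il27ra. A match of these letters is a description and not a binding site.

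Among the receptors that use the common gamma chain, the shared chain itself passed in no comparison by either fit. Il2rg (X chromosome, 98459717 to 98463594, minus strand, NCBIM37, the mm9 build of the files), which serves the receptors of IL-2, IL-4, IL-7, IL-9, IL-15 and IL-21, was at 246, 248 and 301 RPKM in wild type replicates 1, 2A and 2B, at 230 and 259 RPKM in ZnF1-/- replicates 1 and 2 and at 230 and 270 RPKM in ZnF4-/- replicates 1 and 2. The 3 groups overlapped. Against wild type the log2 fold change was -0.11 ± 0.19 (SE) for ZnF1-/- and -0.08 ± 0.19 for ZnF4-/- (adjusted p = 1.00 and 0.985). Its exons overlap those of Gm20489 on the same strand, whose reads could not be told apart.

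Il7r (chromosome 15, 9435916 to 9459631, minus strand), the IL-7 binding chain, was at 15.72, 14.73 and 15.74 RPKM in wild type, 15.37 and 16.22 RPKM in ZnF1-/- and 19.68 and 28.70 RPKM in ZnF4-/-. Both ZnF4-/- libraries stood above the other 5 libraries, which were close together. Il7r rose in ZnF4-/- in the blocked fit, by 0.64 ± 0.14 log2 units (adjusted p = 0.0269), and did not pass without the block (0.61 ± 0.18, adjusted p = 0.211). The difference was 0.32 log2 units within the 76 bp and 0.89 within the 50 bp libraries. The blocked call was lost without ZnF4-/- replicate 2 (0.35, adjusted p = 0.178), without wild type replicate 2A (0.58, adjusted p = 0.0656) or 2B (0.63, adjusted p = 0.114), and with 2A and 2B averaged (adjusted p = 0.0937). ZnF4-/- against ZnF1-/- gave 0.58 ± 0.15 in the blocked fit (adjusted p = 0.0622).

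Il4ra (chromosome 7, 132695785 to 132722986, plus strand), the chain of the IL-4 and IL-13 receptors that binds IL-4, was at 29.40, 44.99 and 45.14 RPKM in wild type, 20.92 and 36.16 RPKM in ZnF1-/- and 14.51 and 25.13 RPKM in ZnF4-/-. In each batch the order was the same, with wild type highest, ZnF1-/- between and ZnF4-/- lowest, while the level differed strongly between batches. In the blocked fit Il4ra fell by 0.90 log2 units in ZnF4-/- (SE 0.09, adjusted p = 0.000835), and the difference was -0.99 within the 76 bp and -0.83 within the 50 bp libraries. Without the block it did not pass (-1.01 ± 0.34, adjusted p = 0.29). The blocked call was kept without each library in turn, at adjusted p = 0.00142 to 0.00948. In ZnF1-/- the blocked log2 fold change was -0.38 ± 0.09 and did not pass (adjusted p = 0.147). Between the mutants Il4ra was lower in ZnF4-/- in the blocked fit by 0.51 log2 units (log2 fold change -0.51, adjusted p = 0.0186). That call was lost without ZnF1-/- replicate 1 (adjusted p = 0.154) or 2 (0.202), ZnF4-/- replicate 1 (0.0639) or wild type replicate 2B (0.06).

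The chains that pair with these differed among themselves. Il2rb, the signalling chain of the IL-2 and IL-15 receptors, was at 9.70, 16.09 and 13.61 RPKM in wild type, 8.89 and 13.49 RPKM in ZnF1-/- and 27.20 and 38.00 RPKM in ZnF4-/-, and rose there in the blocked fit (1.38 ± 0.11, adjusted p = 0.00029; 0.0692 without the block). Il9r, the IL-9 binding chain, rose from 1.61 ± 0.21 to 3.64 ± 0.28 RPKM without the block (0.97 ± 0.18, adjusted p = 0.0399). That call was lost without any 1 of the 7 libraries (adjusted p = 0.0602 to 0.243), whereas the blocked call was kept without each (0.0103 to 0.0381), as was that of Il2rb. Il2ra, the high-affinity chain of the IL-2 receptor, was at 16.1 ± 1.06 RPKM in wild type and 11.7 ± 2.79 RPKM in ZnF4-/- (adjusted p = 0.572, blocked 0.221). Il21r at 64.4 against 64.6 RPKM, Il15ra at 2.02 against 2.47 RPKM and Crlf2, the chain that binds TSLP beside Il7r, at 5.64 against 4.77 RPKM did not pass. Il13ra1, the partner of Il4ra in the IL-13 receptor, was at 0.16 to 0.43 RPKM in all libraries and below the level tested.

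Both receptors of the gp130 group, which signal through the shared chain gp130 encoded by Il6st, were higher in ZnF4-/-. Il6ra (chromosome 3, 89673246 to 89717084, minus strand), the IL-6 binding chain, was at 2.68, 5.73 and 4.43 RPKM in wild type, 2.32 and 2.88 RPKM in ZnF1-/- and 7.78 and 10.91 RPKM in ZnF4-/-. The ZnF4-/- libraries stood above all others, and in each batch the ZnF1-/- library was the lowest. With the block Il6ra rose by 1.17 ± 0.17 log2 units in ZnF4-/- against wild type (adjusted p = 0.00409) and was 1.65 ± 0.18 higher than in ZnF1-/- (adjusted p = 0.0012). Without the block the adjusted p was 0.17 and 0.0517. The difference from wild type was 1.38 within the 76 bp and 1.04 within the 50 bp libraries, and the blocked call was kept without each library in turn, at adjusted p = 0.00259 to 0.0311. In ZnF1-/- the blocked log2 fold change was -0.49 ± 0.17 and did not pass (adjusted p = 0.355).

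Il27ra (chromosome 8, 86554186 to 86566488, minus strand), the IL-27 binding chain, was at 18.10, 25.12 and 22.58 RPKM in wild type, 22.85 and 28.17 RPKM in ZnF1-/- and 26.34 and 34.16 RPKM in ZnF4-/-. In each batch the level was lowest in wild type and highest in ZnF4-/-. It rose in ZnF4-/- in the blocked fit by 0.51 ± 0.09 (adjusted p = 0.0129), with 0.53 within the 76 bp and 0.51 within the 50 bp libraries, and did not pass without the block (adjusted p = 0.534). The blocked call was lost without wild type replicate 2B (0.48, adjusted p = 0.0742) or ZnF4-/- replicate 2 (0.50, adjusted p = 0.0528). The exons of Il27ra overlap those of Palm3 on the opposite strand, and the strand of the reads was not given. Il6st was at 40.09, 43.17 and 43.77 RPKM in wild type, 41.37 and 45.34 RPKM in ZnF1-/- and 53.97 and 65.09 RPKM in ZnF4-/-, and rose there in the blocked fit (0.51 ± 0.09, adjusted p = 0.0112; 0.268 without the block), a call lost without wild type replicate 2B or ZnF4-/- replicate 2 (adjusted p up to 0.0705).

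The chains of the IL-12 receptor did not move alike. Il12rb1 (chromosome 8, 73332348 to 73345323, plus strand), shared by the IL-12 and IL-23 receptors, was at 7.39, 12.36 and 10.60 RPKM in wild type, 9.23 and 12.72 RPKM in ZnF1-/- and 4.08 and 2.98 RPKM in ZnF4-/-. Both ZnF4-/- libraries stood below the other 5, and the 50 bp library was the lower of the pair although the other groups were higher at 50 bp. The log2 fold change was -1.38 ± 0.25 against wild type (adjusted p = 0.0394, blocked 0.0072) and -1.51 ± 0.28 against ZnF1-/- (adjusted p = 0.0412, blocked 0.00623). The difference from wild type was -0.78 within the 76 bp and -1.78 within the 50 bp libraries. Without the block the call against wild type was lost without ZnF4-/- replicate 1 (-1.58, adjusted p = 0.132) or 2 (-1.18, 0.285), wild type replicate 2A (-1.23, 0.112) or 2B (-1.34, 0.175) and ZnF1-/- replicate 2 (-1.38, 0.0506), whereas the blocked call was kept without each library, at adjusted p = 0.000104 to 0.0436. Against ZnF1-/- the unblocked call was lost without each library other than wild type replicate 1 (adjusted p = 0.0518 to 0.272), and the blocked call without ZnF1-/- replicate 2 (0.0543).

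Il12rb2 (chromosome 6, 67241312 to 67326182, minus strand), the IL-12 chain that carries the signal to STAT4, was at 4.68, 4.72 and 3.83 RPKM in wild type, 3.49 and 4.60 RPKM in ZnF1-/- and 3.38 and 3.46 RPKM in ZnF4-/-. The ZnF4-/- libraries were the lowest by a small margin, and the log2 fold change of -0.32 ± 0.17 did not pass (adjusted p = 0.692, blocked 0.318). Il12rb1 thus stood above Il12rb2 in each wild type and ZnF1-/- library, and the ZnF4-/- means of 3.53 and 3.42 RPKM were close.

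Il18r1 (chromosome 1, 40522397 to 40557699, plus strand), which binds IL-18, was at 1.39, 1.06 and 0.90 RPKM in wild type, 0.39 and 0.29 RPKM in ZnF1-/- and 3.87 and 5.96 RPKM in ZnF4-/-. The 3 groups did not overlap, with ZnF1-/- lowest and ZnF4-/- highest. At the best-matching depths the 76 bp values stand for about 117 reads in wild type, 102 in ZnF4-/- and 23 in ZnF1-/-. ZnF4-/- against wild type gave a log2 fold change of 1.73 ± 0.24 (adjusted p = 0.0118, blocked 0.00279) and against ZnF1-/- of 2.66 ± 0.26 (adjusted p = 0.0028, blocked 0.000498). In ZnF1-/- against wild type it was -0.94 ± 0.24, with an unadjusted p of 0.00537, and did not pass (adjusted p = 0.532, blocked 0.146), and the difference was -1.09 within the 76 bp and -0.90 within the 50 bp libraries. Adding 0.5 RPKM before the log understates changes at this level.

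The unblocked call of Il18r1 against wild type was lost without wild type replicate 2B (1.63, adjusted p = 0.0711) or ZnF4-/- replicate 2 (1.45, adjusted p = 0.0889), and with 2A and 2B averaged (1.67, adjusted p = 0.0594). In the blocked fit it was kept without each library, at adjusted p = 0.000265 to 0.023. Il18r1 reached the level tested through ZnF4-/-, since its mean over the 5 other libraries was 0.806 RPKM, and with all genes tested its adjusted p was 0.0148. Il18rap, the signalling chain of the IL-18 receptor, was at 0.27 to 0.32 RPKM in the 5 other libraries and ZnF4-/- replicate 1 and at 0.48 RPKM in ZnF4-/- replicate 2, below the level tested. Of 5 tested genes of IL-18 signalling, which include Myd88, 0 passed by limma with or without the block in any comparison and 0 had an unadjusted p under 0.05.

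The remaining receptors bind IL-10 and interferon-gamma. Ifngr1 (chromosome 10, 19311755 to 19330035, plus strand), the interferon-gamma binding chain, was at 113.63, 170.88 and 167.81 RPKM in wild type, 173.60 and 230.98 RPKM in ZnF1-/- and 85.85 and 110.61 RPKM in ZnF4-/-. Both ZnF1-/- libraries stood above wild type and both ZnF4-/- libraries below it. In the blocked fit ZnF4-/- was lower than ZnF1-/- by 1.04 log2 units (log2 fold change -1.04 ± 0.11, adjusted p = 0.000951), with -1.01 within the 76 bp and -1.06 within the 50 bp libraries, and this call was kept without each library. Without the block it did not pass (adjusted p = 0.161). Against wild type Ifngr1 fell in ZnF4-/- in the blocked fit (-0.53 ± 0.10, adjusted p = 0.0149; 0.484 without the block). That call was lost without wild type replicate 2B (-0.51, adjusted p = 0.0831) or ZnF4-/- replicate 2 (-0.45, adjusted p = 0.098) and with 2A and 2B averaged (adjusted p = 0.0631). In ZnF1-/- the blocked log2 fold change was 0.51 ± 0.10 and did not pass (adjusted p = 0.0721). Its partner Ifngr2 was at 19.4 ± 1.38 RPKM in wild type, 19.9 ± 1.80 RPKM in ZnF1-/- and 21.0 ± 1.42 RPKM in ZnF4-/- and did not pass.

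Il10ra (chromosome 9, 45061922 to 45077232, minus strand), the IL-10 binding chain, was at 4.58, 6.87 and 5.20 RPKM in wild type, 7.83 and 8.58 RPKM in ZnF1-/- and 7.05 and 6.53 RPKM in ZnF4-/-. Both ZnF1-/- libraries were the highest of all, while ZnF4-/- overlapped wild type. The log2 fold change in ZnF1-/- was 0.54 ± 0.18, with an unadjusted p of 0.0207, and did not pass (adjusted p = 0.969, blocked 0.203). Its partner Il10rb was at 6.82 ± 0.16 RPKM in wild type, 7.57 ± 1.27 RPKM in ZnF1-/- and 7.50 ± 0.74 RPKM in ZnF4-/- and did not pass.

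**Figure D2:**
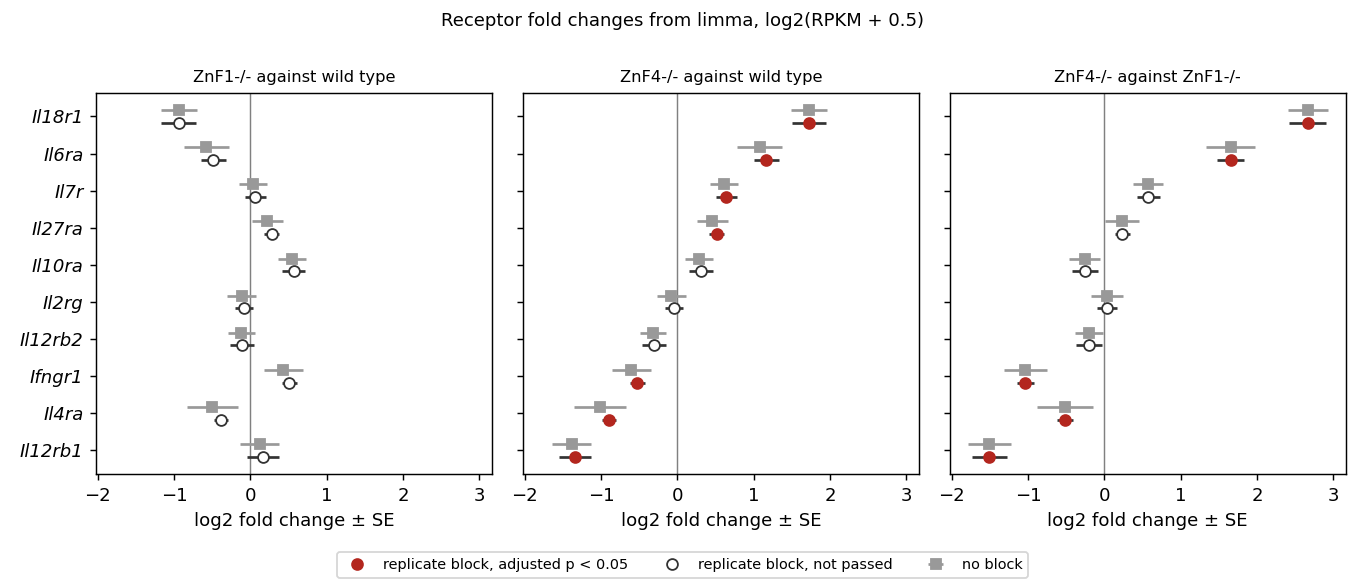
Log2 fold changes of log2(RPKM + 0.5) from limma with standard errors for the 10 receptors in the 3 comparisons. Grey squares are the fit without the block and circles the blocked fit, red where the adjusted p was under 0.05. Circles are red for 7 receptors in ZnF4-/- against wild type, for 5 in ZnF4-/- against ZnF1-/- and for 0 in ZnF1-/- against wild type.

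**Figure D3:**
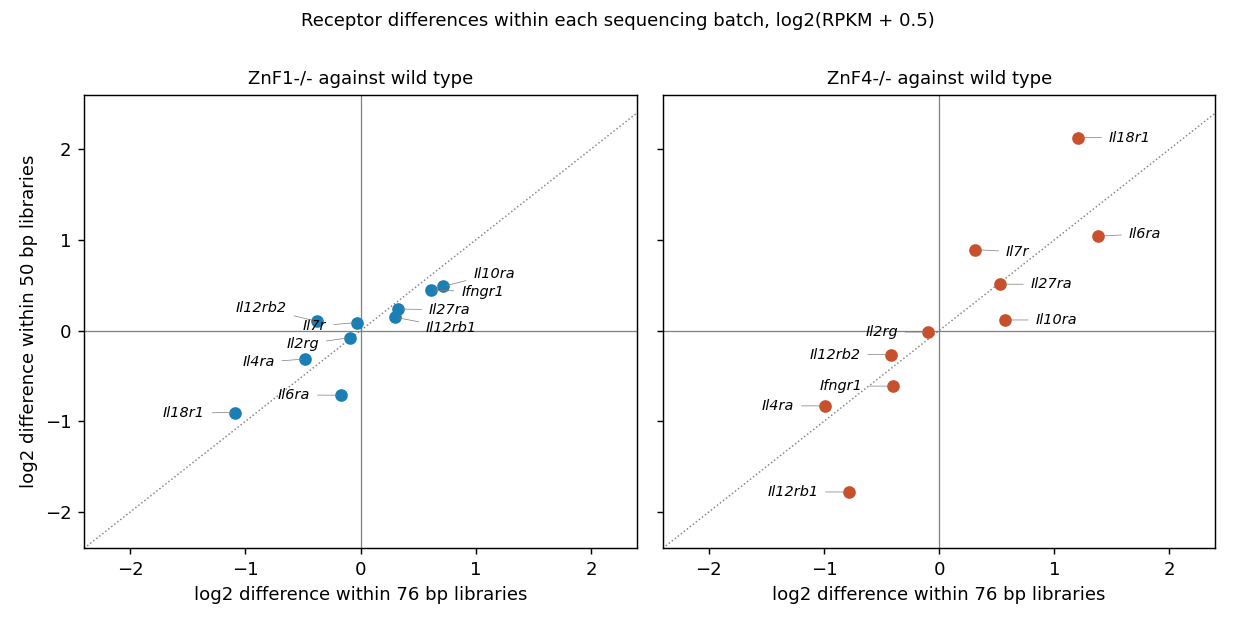
Difference of each receptor from wild type in log2(RPKM + 0.5) within the 76 bp libraries (horizontal axis) and within the 50 bp libraries (vertical axis, against the mean of wild type 2A and 2B), for ZnF1-/- (left) and ZnF4-/- (right). The dotted line marks equal differences. In ZnF4-/- all 10 receptors have the same sign in both batches, and Il12rb1 and Il18r1 lie farther from 0 at 50 bp (-1.78 and 2.13) than at 76 bp (-0.78 and 1.21).

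Genes of the wider pathway were described from lists. Of 33 other cytokine receptors found, 14 were tested. In ZnF4-/- 1 rose and 0 fell without the block, where 2.54% of all tested genes passed. In the blocked fit 4 rose and 0 fell, beside 6.1% and 2.12% of all tested genes. Kit, the receptor of stem cell factor, rose from 2.14 ± 0.15 to 4.41 ± 0.40 RPKM (0.89 ± 0.15, adjusted p = 0.0267), a call lost without any 1 library (0.0538 to 0.203) but kept without each in the blocked fit (0.00855 to 0.0295). With the block Csf2ra, the GM-CSF binding chain, Tnfrsf1b, a TNF receptor, and Tgfbr2, a TGF-beta receptor, also rose, by 1.06, 0.72 and 0.56 log2 units (adjusted p = 0.0151, 0.0032 and 0.00891). Csf2ra was lost without wild type replicate 1 or 2B (adjusted p up to 0.0791) and Tgfbr2 without 2B (0.0529). Il17re, a chain of the IL-17 receptor family, was at 4.07 ± 0.61 RPKM in wild type, 1.77 ± 0.18 RPKM in ZnF1-/- and 5.27 ± 0.06 RPKM in ZnF4-/-. It was higher in ZnF4-/- than in ZnF1-/- without the block (1.35 ± 0.18, adjusted p = 0.0107), and it was the 1 tested receptor of that list to fall in ZnF1-/- in the blocked fit (-0.999 ± 0.15, adjusted p = 0.0265). The former call was lost without any 1 mutant library (adjusted p up to 0.0877) but kept without each in the blocked fit, and the latter was lost without any 1 wild type or ZnF1-/- library (up to 0.253). The median log2 fold change of the 14 was 0.12 in ZnF4-/- and -0.02 in ZnF1-/-, beside -0.05 and -0.02 over all tested genes.

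Among 11 JAK kinases and STAT factors, all tested, 0 passed by limma without the block in ZnF4-/-, where 2.54% of all tested genes did. With the block 2 rose and 0 fell, beside 6.1% and 2.12% of all tested genes. Jak3, the kinase held by the common gamma chain, rose in the blocked fit by 0.73 ± 0.14 (adjusted p = 0.0142), from 9.64 ± 2.82 to 14.9 ± 1.87 RPKM, and was lost without wild type replicate 2B (0.0583). The median of the 11 was -0.13 without the block, so most of these genes did not share the rise.

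Of 16 tested feedback inhibitors of cytokine signals 3 rose in ZnF4-/- in the blocked fit and 0 fell, beside 6.1% and 2.12% of all tested genes. By limma without the block 0 passed, where 2.54% of all tested genes did. Cish, induced by STAT5, was at 2.16, 4.42 and 3.81 RPKM in wild type, 2.33 and 4.34 RPKM in ZnF1-/- and 5.86 and 7.79 RPKM in ZnF4-/- (blocked 1.03 ± 0.14, adjusted p = 0.00384). Socs3, which restrains gp130, and Socs5, another member of the same inhibitor family, rose in the blocked fit by 0.79 and 0.85 log2 units (adjusted p = 0.0297 and 0.00905), Socs5 being lost without wild type replicate 2B (0.0519) and Socs3 without wild type replicate 1 or 2B or ZnF4-/- replicate 1 (up to 0.125). Socs5 was also higher in ZnF4-/- than in ZnF1-/- without the block (1.07 ± 0.18, adjusted p = 0.0283), a call lost without any 1 library other than wild type replicate 1 (up to 0.209). Of 17 tested STAT target genes, a list that also holds Cish and Socs3, 4 were called higher and 1 lower in the blocked fit. Over all tested genes the shares were 6.1% and 2.12%. Without the block 0 passed. Bcl3 and Pim2 rose by 0.95 and 0.68 log2 units in the blocked fit (adjusted p = 0.00697 and 0.0251), and Ccnd3, a cyclin, fell by 0.47 log2 units (adjusted p = 0.0459). Bcl3 was kept without each library, Pim2 was lost without wild type replicate 1 or 2B or ZnF4-/- replicate 1 (up to 0.129), and Ccnd3 was kept only without wild type replicate 1 or ZnF4-/- replicate 1 (up to 0.255 otherwise). In ZnF1-/- against wild type 0 genes of the JAK and STAT, inhibitor and STAT target lists passed by limma in either fit. Of them 1 had an unadjusted p under 0.05, beside 3.85% of all tested genes. The 16 cytokine genes in the table, among them Il7, Il4, Il6, Il18 and Ifng, all had means below 1 RPKM and were not tested.

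**Figure D4:**
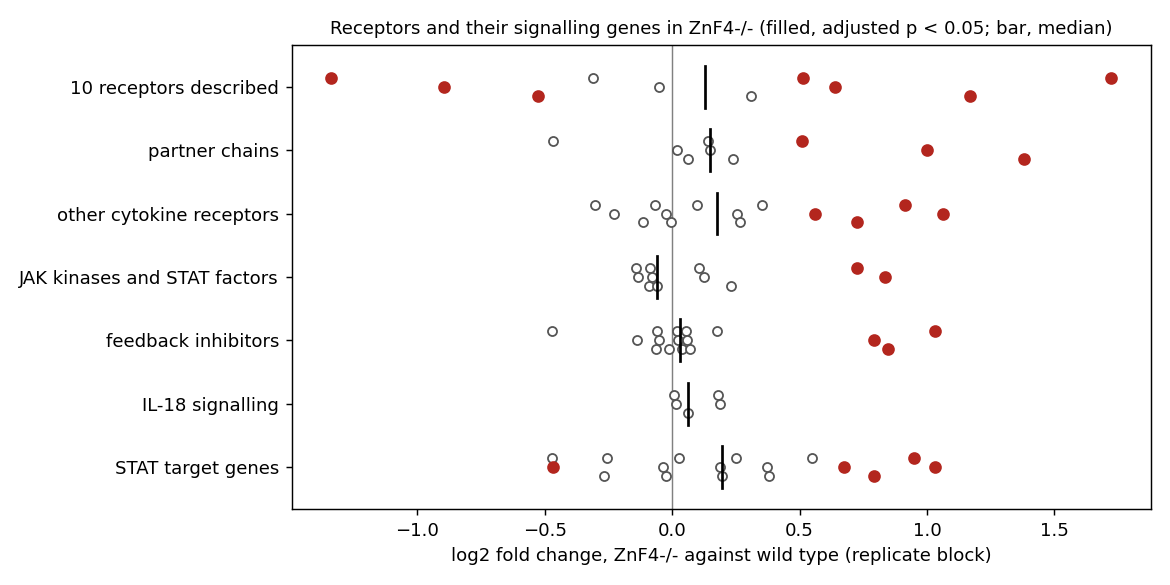
Log2 fold changes of log2(RPKM + 0.5) in ZnF4-/- against wild type from the blocked limma fit (horizontal axis) for each tested gene of the 10 receptors and of the lists of partner chains, other cytokine receptors, JAK kinases and STAT factors, feedback inhibitors, IL-18 signalling and STAT targets, with filled red points where the adjusted p was under 0.05 and a bar at each median. Red points lie to the right of 0 apart from the receptors Il12rb1, Il4ra and Ifngr1 and the STAT target Ccnd3, at -0.47.

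Levels of cell type markers moved along with the receptors in ZnF4-/-. The levels of 7 genes listed as double-positive thymocyte markers, Ptcra among them, were summed. The sums were 2601 to 3300 RPKM in wild type, 2737 to 3140 RPKM in ZnF1-/- and 1982 to 2441 RPKM in ZnF4-/-. Against wild type 6 of the 7 were lower in ZnF4-/- and Ptcra was higher, without a call. Ptcra was at 27.0 ± 7.13 RPKM in wild type, 19.5 ± 6.99 RPKM in ZnF1-/- and 34.9 ± 0.94 RPKM in ZnF4-/-. Between the mutants it was called higher in ZnF4-/- in the blocked fit (adjusted p = 0.038), not kept without each library. In that comparison 3 of the 7 were called lower, and 7.29% of all tested genes were called. In the blocked fit 2 of 7 fell in ZnF4-/- against wild type, beside 2.12% of all tested genes. Among them Cd8a fell by 0.51 log2 units (adjusted p = 0.0479), a call lost without any 1 library other than wild type replicate 1 (up to 0.272). The 4 mature single-positive markers other than Il7r summed to 110 to 139 RPKM in wild type, 135 to 151 RPKM in ZnF1-/- and 138 to 178 RPKM in ZnF4-/-. Of these S1pr1, needed for thymic exit, rose by 1.05 ± 0.18 log2 units (adjusted p = 0.0283), from 11.1 ± 1.25 to 23.6 ± 3.84 RPKM, and Ccr7 rose in the blocked fit (1.04 log2 units, adjusted p = 0.000573). The 7 NK and innate-like markers, 4 of them tested and 1 of them Il2rb, summed to 50.1 to 65.7 RPKM in wild type, 42.4 to 49.8 RPKM in ZnF1-/- and 102 to 110 RPKM in ZnF4-/-. Nkg7 and Klrd1, of cytotoxic and NK-like cells, rose without the block (0.98 ± 0.16 and 1.67 ± 0.19, adjusted p = 0.0233 and 0.00477). Klrd1 reached the level tested through ZnF4-/-, since its mean over the 5 other libraries was 0.78 RPKM, and with all genes tested its adjusted p was 0.00634. The call of Klrd1 was kept without each library, and the blocked calls of Nkg7, S1pr1 and Ccr7 were too, whereas the unblocked calls of Nkg7 and S1pr1 were lost without ZnF4-/- replicate 1 or 2 or wild type replicate 2A or 2B, and that of Nkg7 also without ZnF1-/- replicate 2 (up to 0.192 and 0.221). The defining NK marker Ncr1 was at 0.03 to 0.24 RPKM in all libraries, and Klrb1c was at 0.43 to 0.67 RPKM in wild type and at 0.10 and 0.18 RPKM in ZnF4-/-.

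Markers of other cells were lower in sum but also differed. The 6 myeloid and dendritic cell markers summed to 78.6 to 87.3 RPKM in wild type, 75.2 to 78.9 RPKM in ZnF1-/- and 117 to 126 RPKM in ZnF4-/-. Of 5 tested, 0 passed by limma in ZnF4-/- against wild type in either fit. Over all tested genes 2.54% passed without and 8.22% with the block. Between the mutants 7.29% of all tested genes were called in the blocked fit. Against ZnF1-/- 1 of the 5, the integrin chain Itgam, was higher in ZnF4-/- in the blocked fit (adjusted p = 0.0331), a call lost without replicate 1 of either mutant or wild type replicate 2B (up to 0.319), and 0 passed without the block. The 4 regulatory T cell markers summed to 36.2 to 47.6, 34.7 to 51.7 and 45.4 to 55.2 RPKM, with 2 rises in ZnF4-/- against wild type in the blocked fit. The 3 erythroid markers summed to 10.4 to 26.9, 9.40 to 25.4 and 45.8 to 53.0 RPKM, with 1 rise. Over all tested genes 6.1% rose in that fit. The 5 B cell markers summed to 18.7 to 23.7 RPKM in wild type, 26.4 to 35.8 RPKM in ZnF1-/- and 14.2 to 18.3 RPKM in ZnF4-/-, and split, since Cd79a was higher and Cd79b lower in ZnF4-/- than in ZnF1-/- without the block (1.36 ± 0.20 and -1.36 ± 0.21, adjusted p = 0.0148 and 0.0189), calls kept without each library in the blocked fit and lost without 5 and 4 of the 7 otherwise (up to 0.118 and 0.132). The 5 epithelium and fibroblast markers summed to 2.02 to 4.62 RPKM, with Pdgfra below 0.1 RPKM. The part of these shifts in cell types in the receptor differences was not tested.

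By Pearson r over the 7 libraries, after removal of the mean of each batch, the tested genes whose pattern was most like that of Il12rb1 were Cdk20 (r = 0.995), Wdr62 (0.994) and Ncoa3 (0.993). The most alike to Il18r1 were Ipcef1 (0.995), Akr1c18 (0.994) and Ctdsp2 (0.993). Akr1c18, like Il18r1, reached the level tested through ZnF4-/-, since its mean over the other libraries was 0.352 RPKM. All of these rest on libraries that share a batch correction, and with 7 libraries such an r is a description only. Cdk20, a cyclin-dependent kinase, was at 10.6 ± 2.91 RPKM in wild type and 4.94 ± 0.21 RPKM in ZnF4-/-, and Akr1c18, an aldo-keto reductase, was at 0.57 ± 0.07 RPKM in wild type, 0 and 0.06 RPKM in ZnF1-/- and 3.56 and 6.86 RPKM in ZnF4-/-.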

How the data were processed

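Polyadenylated RNA of whole thymus was sequenced as single-end reads, 76 bp for replicate 1 and 50 bp for the others, per the labels' protocols. The deposited table gives RPKM per RefSeq gene, which the authors computed from exonic reads with SeqMonk on mm9, per the series' design text, with 1 transcript kept per gene. TopHat and bedtools are named in the submitters' processing notes, and their versions are not given in the sources used here. The deposited gene length beside each value was used to read depth from low values. Read counts were not part of the files analysed, so intervals that need depth are not given.

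RPKM values were tested as log2(RPKM + 0.5) with limma 3.58.1 in R 4.3.3 (moderated, variance prior with a trend), on the 10498 genes whose mean over the 7 libraries reached 1 RPKM, with the 3 groups in 1 model and Benjamini-Hochberg adjustment over all genes of a comparison. Fold changes are on that scale, which understates changes of low genes. The residual degrees of freedom were 4, and 3 in the blocked fit. The variance prior, drawn from all tested genes, added 3.26, and 4.96 in the blocked fit. The labels tie replicate 1 to 1 instrument and the other numbers to another, so the numbers pair libraries as batches. Same-numbered libraries of different groups deviated together from their group means, with r of 0.489 to 0.737 over 8 pairs. The deviations of a group sum to 0, and those of the 2 libraries of a mutant mirror each other, so these pairs are not independent. Wild type 2A and 2B were counted as 2 libraries. The labels do not say whether they come from separate animals or from 1 preparation, so the wild type SDs may be technical in part, and their mean was also tried as 1 library.

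The members and the lists of other genes were chosen with earlier results of these data known. All 10 members were named, with every partner chain, every listed gene that passed without the block, up to 4 genes a list that passed with it, and the 3 genes most alike to each member that passed without the block. Other listed genes are given as counts, apart from markers named for their level, and some genes that the rule names are not reported here. Gene positions are from GENCODE vM1 on NCBIM37, and promoter windows from RefSeq on GRCm38.p6. Alternatives tried were the block, pseudocounts of 0.1 and 1 RPKM, no filter and a filter of 3 RPKM, scaling to a common median, quantile normalization, a prior without a trend, 2A and 2B averaged, and leaving out each library without and with the block. Averaging 2A and 2B together with the block was added after seeing the data.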

Additional observations from a re-analysis of the deposited data

How the results depend on the processing

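The calls depended most on the replicate block. With it, called genes went from 9 to 92 in ZnF1-/- against wild type, from 267 to 863 in ZnF4-/- against wild type and from 246 to 765 in ZnF4-/- against ZnF1-/-, and called receptors from 2 to 7 and from 2 to 5 in the latter comparisons. With the block and wild type 2A and 2B averaged, called genes numbered 25, 568 and 593, and receptors 5 and 5 in the latter 2. Averaging alone gave 1 and 127 genes in the mutants against wild type, and 0 and 1 receptors in ZnF4-/- against wild type and against ZnF1-/-. A filter of 3 RPKM gave 4, 123 and 119 genes and 0 and 0 receptors, and left Il18r1 out because its mean was lower. No filter gave 4, 621 and 594 genes. In ZnF1-/- a common median gave 18 genes, quantile normalization 14 and a prior without a trend 14. In ZnF4-/- against ZnF1-/- a common median and quantile normalization each gave 4 receptors. Without each library in turn, with and without the block, called genes ranged from 1 to 223, 105 to 857 and 103 to 937, and called receptors from 0 to 2, 0 to 7 and 1 to 6. Receptors that changed sign did not pass in any of these settings. Il2rg reached 0.013 in ZnF1-/- and 0.0782 in ZnF4-/- after quantile normalization. Without each library in turn Il2rg ranged from -0.195 to 0.0347 in ZnF4-/- against wild type and from -0.083 to 0.15 against ZnF1-/-. In ZnF1-/- against wild type Il12rb1 ranged from -0.10 to 0.35, Il12rb2 from -0.33 to 0.0794 and Il7r from -0.00178 to 0.20, and Il12rb2 in ZnF4-/- against ZnF1-/- from -0.41 to 0.00344. The cause was not tested. Each mutant has 2 libraries, 1 per batch. The blocked fit takes the spread of a gene from 3 residual degrees of freedom and from a prior over all tested genes worth 4.96. Where a library left out leaves a mutant with 1, that library is assumed to vary like the others. Sex and read length went with the batch and cannot be told apart.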
